A study of Mus musculus with 6 samples.

Results

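The TREM2-dependent genes of disease-associated microglia were measured in the cerebellum of mice without Tmem106b. The 10 genes were chosen by name, as TREM2, its adaptor and genes of the late disease-associated state: Trem2, Tyrobp, Apoe, Lpl, Cst7, Gpnmb, Itgax, Spp1, Ch25h and Lgals3. All 10 were found among the 43346 genes of the count table. RNA came from the cerebellum of 6 mice aged 15 months, of which 3 were Tmem106b-/- (KO) and 3 were Tmem106b+/+ (WT), and each genotype was made up of 1 female and 2 males. TMEM106B spans the membrane of lysosomes and late endosomes. The sources used here do not give the kind of knockout allele or the strain, and the labels name no cell type to which the knockout is restricted. Each mouse gave 1 library. Replicate 1 is the female in both genotypes, and replicate numbers follow the order of deposit. The samples are bulk tissue, so more microglia and more RNA per microglial cell cannot be told apart in any of the values that follow.

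TREM2 is a lipid-sensing receptor of the microglial surface, and in the brain it is made mainly by microglia, the resident macrophages. It has no signalling domain of its own and works through the adaptor DAP12, the product of Tyrobp, which recruits the kinase SYK. Around amyloid plaques, dying neurons and damaged myelin, mouse microglia first lower their homeostatic genes and then, in a step that needs TREM2, raise genes of lipid handling, lysosomes and phagocytosis. The last step is the late disease-associated state to which most of the 10 genes belong.

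Library totals ran from 25245778 to 31135185 counts, and RNA integrity numbers were 10 throughout. Tmem106b averaged 66.8 ± 3.64 CPM (read counts relative to the library total, scaled by TMM) in KO and 245 ± 19.4 CPM in WT cerebella (SD, n = 3 each), and its fall was called in edgeR (log2 fold change -1.88, Benjamini-Hochberg adjusted p 1.37e-04). Markers of the cerebellar neurons were abundant in every library, with Gabra6 of granule cells at 789 to 970 CPM in KO and 753 to 819 CPM in WT, and Calb1 of Purkinje cells at 789 to 1053 CPM in KO and 1163 to 1254 CPM in WT. The first principal component (35.6% of the variance) set WT replicate 1 apart, at -40.1 against -10.8 to 22.0 for the other 5 libraries. Markers of the choroid plexus, a tissue beside the cerebellum, summed to 1638 to 5125 CPM in KO and 85.2 to 4763 CPM in WT, and WT replicate 1 held the lowest sum. The part of this difference in the results was not tested. Ch25h did not pass the filter on low counts in the fit of all 6 libraries and was not tested there. Cst7 passed it through the KO libraries only, so counts over the tested genes are descriptions.

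The start regions of 5 of the genes are shown because they hold short motifs: a match to the open AP-1 pattern TGANTCA in 4 of them and a PU box in Trem2 and Spp1. RefSeq start windows, of 250 bases before and 50 bases from the annotated start in GRCm38.p6, the same assembly as mm10, were found for 8 of the 10 genes, and Tyrobp and Lpl had none in the table used. The windows run 5′ to 3′ on the + strand, which is the coding strand of all 5 genes. They lie at chr17:48346151-48346450 (Trem2), chr2:150570165-150570464 (Cst7), chr6:49036268-49036567 (Gpnmb), chr7:128129300-128129599 (Itgax) and chr5:104434861-104435160 (Spp1). Capitals mark matches, on either strand, to a PU box (GAGGAA, the core bound by the macrophage factor PU.1) or to the AP-1 pattern (TGANTCA, with any base at N).
Trem2: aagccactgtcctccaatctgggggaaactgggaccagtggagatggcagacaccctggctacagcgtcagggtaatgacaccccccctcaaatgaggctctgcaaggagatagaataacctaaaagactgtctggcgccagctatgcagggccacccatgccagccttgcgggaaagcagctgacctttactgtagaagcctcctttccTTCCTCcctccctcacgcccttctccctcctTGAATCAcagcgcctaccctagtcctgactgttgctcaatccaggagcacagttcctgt
Cst7: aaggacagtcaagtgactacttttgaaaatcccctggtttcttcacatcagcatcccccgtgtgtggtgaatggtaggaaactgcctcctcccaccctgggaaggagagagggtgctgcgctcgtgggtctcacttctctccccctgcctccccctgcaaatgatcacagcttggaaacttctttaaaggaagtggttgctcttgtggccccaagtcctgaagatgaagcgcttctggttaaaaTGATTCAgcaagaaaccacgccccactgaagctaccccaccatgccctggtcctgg
Gpnmb: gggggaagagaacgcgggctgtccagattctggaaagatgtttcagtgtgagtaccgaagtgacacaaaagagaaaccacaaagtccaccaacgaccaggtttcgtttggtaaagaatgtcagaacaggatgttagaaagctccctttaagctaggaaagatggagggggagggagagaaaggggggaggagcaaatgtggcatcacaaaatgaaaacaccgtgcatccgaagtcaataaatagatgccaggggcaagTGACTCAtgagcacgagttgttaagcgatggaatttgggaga
Itgax: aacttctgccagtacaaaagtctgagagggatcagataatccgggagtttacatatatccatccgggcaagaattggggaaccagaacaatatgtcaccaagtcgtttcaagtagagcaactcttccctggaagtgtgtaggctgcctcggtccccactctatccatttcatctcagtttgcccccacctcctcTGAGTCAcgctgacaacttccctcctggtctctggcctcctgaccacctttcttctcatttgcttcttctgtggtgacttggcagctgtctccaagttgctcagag
Spp1: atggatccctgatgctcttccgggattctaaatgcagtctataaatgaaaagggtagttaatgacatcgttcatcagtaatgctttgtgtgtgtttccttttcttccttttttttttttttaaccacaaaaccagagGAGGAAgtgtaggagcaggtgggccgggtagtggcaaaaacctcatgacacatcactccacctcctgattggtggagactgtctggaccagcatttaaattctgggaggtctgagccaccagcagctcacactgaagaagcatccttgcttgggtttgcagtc

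The AP-1 letters began 9 bases before the start in Trem2 (TGAATCA), 6 bases before it in Cst7 (TGATTCA), 56 bases before it in Itgax (TGAGTCA) and 8 bases after it in Gpnmb (TGACTCA). Only Itgax and Gpnmb had the G or C centre of the usual AP-1 site, while Trem2 and Cst7 matched through the open centre. Some genes have several windows, and 4 of the 11 windows of the 8 genes (36.4%) held the open pattern, as did 7.81% of all 32851 windows in the table. A PU box was found in 4 of the 11 windows (36.4%), those of Trem2, Apoe and Spp1, and in 28.3% of all windows. The E-box CACGTG, a sequence read by the lysosomal regulators of the MiT/TFE family, was found in 0 of the 11 windows and in 7.15% of all windows. Trem2 alone of the 8 genes held both a PU box and an AP-1 match. A match describes the letters and not a bound site, and binding was not measured. The motifs were chosen with the sequences in view.

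The 10 genes were higher in KO than in WT cerebella in most cases, and the 3 that passed the test were Lpl, Gpnmb and Lgals3. In the fit over all 16934 genes tested, 3 of the 10 genes rose at an edgeR Benjamini-Hochberg adjusted p under 0.05, against 0.136% of all genes tested, and 0 fell, also at an unadjusted p under 0.05. The median log2 fold change over the 9 tested genes was 1.20, against 0.00029 over all genes tested. In 9 of the 10 genes (8 of the 9 tested) every KO library lay above every WT library, which was the case for 7.77% of the genes tested. At an unadjusted p under 0.05, 8 of the 9 tested genes were higher in KO, against 4.71% of all genes. These shares are a description of a list whose members were proposed with earlier results of these data known. The exception in each count was Apoe, whose libraries overlapped between the genotypes.

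**Figure D1:**
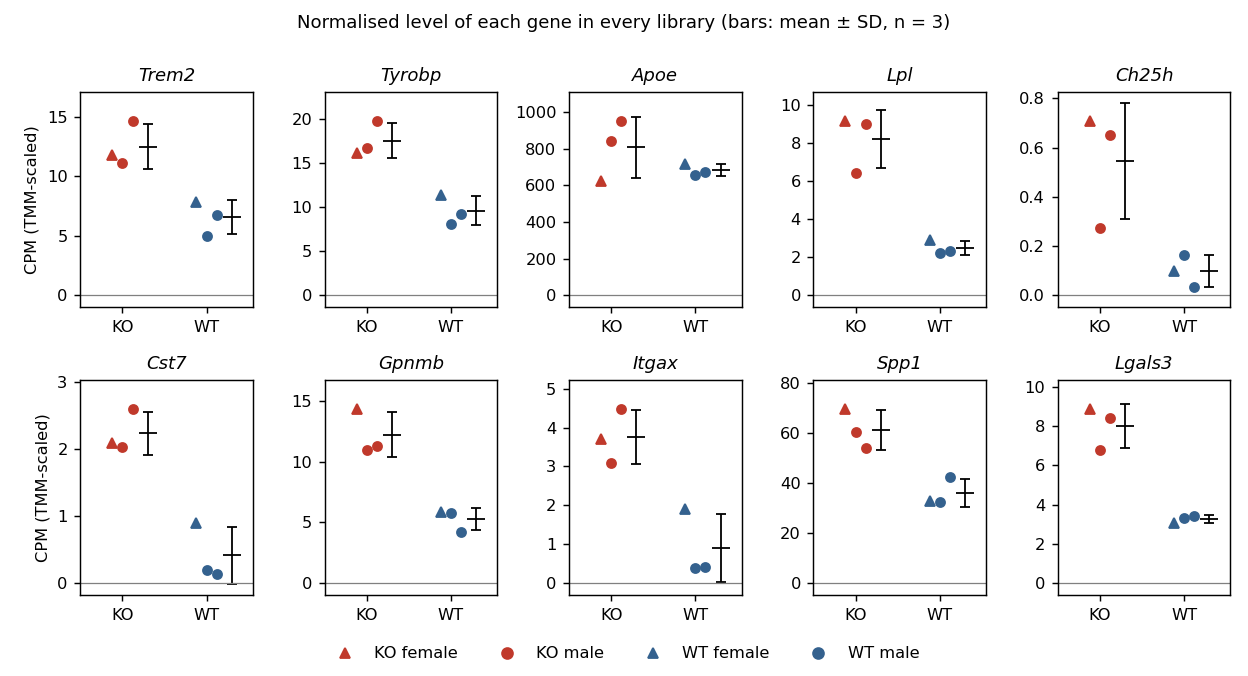
TMM-scaled CPM of the 10 genes in each library, 1 panel per gene with its own linear axis. KO libraries stand on the left and WT libraries on the right, triangles are females, circles are males, and bars give the mean and SD of 3 libraries. The KO libraries lie above the WT libraries in every panel other than Apoe, where they span 626 to 951 CPM and the WT libraries 654 to 719 CPM.

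The receptor and its adaptor were both higher in KO cerebella, though neither passed the test. Trem2 (ENSMUSG00000023992, chr17:48346401-48354147), the receptor, was at 11.8, 11.1 and 14.7 CPM in KO replicates 1 to 3 and at 7.85, 5.01 and 6.77 CPM in WT replicates 1 to 3. The lowest KO library lay above the highest WT library, the female WT replicate 1. The log2 fold change was 0.94 (95% interval 0.52 to 1.37), with an edgeR adjusted p of 0.117. Tyrobp (ENSMUSG00000030579, chr7:30413788-30417577), which encodes the adaptor DAP12, was at 16.2, 16.7 and 19.8 CPM in KO and at 11.4, 8.14 and 9.23 CPM in WT libraries. The groups again did not overlap, and WT replicate 1 was the highest of its genotype. For Tyrobp the log2 fold change was 0.88 (95% interval 0.54 to 1.22), with an edgeR adjusted p of 0.0663. Per kilobase of gene model, Tyrobp stood at 11.84 to 13.2 times the level of Trem2 in KO libraries. In WT libraries it stood at 11.95 to 14.3 times, so this ratio overlapped between the genotypes. The size of the ratio depends on the lengths in the file, 564 bases for Tyrobp and 4946 bases for Trem2. These are lengths of gene models, which can differ from those of the transcripts, so the ratio does not give the proportion of the transcripts.

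Among the genes of lipid handling, Lpl rose and Apoe did not pass the test. Lpl (ENSMUSG00000015568, chr8:68880491-68907448) encodes lipoprotein lipase, the enzyme that frees fatty acids from triglycerides of lipoproteins. It was at 9.17, 6.45 and 9.01 CPM in KO libraries and at 2.89, 2.21 and 2.33 CPM in WT libraries. The lowest KO value was KO replicate 2, and it exceeded every WT value. Lpl averaged 8.21 ± 1.52 CPM in KO and 2.48 ± 0.37 CPM in WT (SD, n = 3 each), a log2 fold change of 1.73 ± 0.17 (SE), with an edgeR adjusted p of 0.0134. Lpl lost its call without WT replicate 2 (edgeR adjusted p 0.134) and without WT replicate 3 (0.167). Its level relative to the receptor also differed without overlap, at 0.582 to 0.779 CPM of Lpl per CPM of Trem2 in KO and 0.343 to 0.441 in WT.

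Apoe (ENSMUSG00000002985, chr7:19696109-19699166) encodes the main lipid carrier of the brain, a ligand of TREM2 that astrocytes make in quantity as well as activated microglia. It was at 626, 843 and 951 CPM in KO and at 719, 654 and 673 CPM in WT libraries. The female KO library was the lowest of all 6 and the male KO libraries were the highest, so the genotypes overlapped. Apoe had a log2 fold change of 0.22 (95% interval -0.07 to 0.52), with an edgeR adjusted p of 0.684. Summed CPM of 8 astrocyte and Bergmann glia markers were 5783 to 6262 in KO and 6110 to 6375 in WT libraries. Aldoc was the largest part, at a mean of 2223 CPM in KO and 2329 in WT. The markers differed in direction, with 3 log2 fold changes above 0 (Gja1 0.29) and 5 below 0 (Slc1a3 -0.24). Their part in the level of Apoe was not tested. Apoe made up 82.1 to 88.4% of the summed CPM of the 10 genes in KO and 90.7 to 91.9% in WT libraries. Without Apoe, the other 9 genes summed to 118 to 137 CPM in KO and 57.7 to 68.9 CPM in WT libraries.

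Ch25h (ENSMUSG00000050370, chr19:34473786-34475135) encodes cholesterol 25-hydroxylase, which makes the signalling oxysterol 25-hydroxycholesterol. It was found at 18, 8 and 18 counts in KO and at 3, 5 and 1 counts in WT libraries, too few for the filter. Every KO library lay above every WT library. The summed counts were 44 in KO and 9 in WT, a rate ratio of 5.45 with an exact 95% interval of 2.63 to 12.7 that covers counting error only. Fitted without a filter, its log2 fold change was 2.38 ± 0.58 (SE), with an edgeR adjusted p of 0.0509 over 26510 genes. The Ch25h model overlaps that of Gm26902, which averaged 5.67 counts a library beside 8.83 for Ch25h, and without a stated strand setting their reads cannot be told apart.

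Of the lysosomal genes, Gpnmb rose and Cst7 showed a larger difference with a wide spread among WT mice. Gpnmb (ENSMUSG00000029816, chr6:49036518-49058182) encodes a glycoprotein of lysosomes and phagosomes that lipid-laden macrophages make. It was at 14.4, 11.0 and 11.3 CPM in KO and at 5.82, 5.80 and 4.25 CPM in WT libraries. The KO values lay close together, all above the WT values. Gpnmb averaged 12.2 ± 1.87 CPM in KO and 5.29 ± 0.902 CPM in WT (SD, n = 3 each), a log2 fold change of 1.20 ± 0.15 (SE), with an edgeR adjusted p of 0.0222. Gpnmb lost its call without KO replicate 2 (edgeR adjusted p 0.0765), WT replicate 2 (0.117) or WT replicate 3 (0.221).

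Cst7 (ENSMUSG00000068129, chr2:150570415-150578944) encodes cystatin F, an inhibitor of lysosomal cysteine cathepsins. It was at 2.09, 2.03 and 2.61 CPM in KO and at 0.898, 0.198 and 0.135 CPM in WT libraries, from 53, 59 and 72 counts in KO and 27, 6 and 4 counts in WT. WT replicate 1 stood at 5.40 times the mean of the other WT libraries, and the lowest KO library stood at 2.26 times WT replicate 1. The coefficient of variation was 14.2% in KO and 103% in WT. The log2 fold change was 2.57 (95% interval 1.44 to 3.71), with an edgeR adjusted p of 0.115. Without WT replicate 1, a fit in which the lone KO female no longer informs the genotype difference, the log2 fold change was 3.76, with an edgeR adjusted p of 0.00763. Within the KO libraries Cst7 kept a narrow proportion to Trem2, at 0.177 to 0.183 CPM per CPM of Trem2, against 0.0199 to 0.114 in WT libraries.

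Of the surface and secreted proteins, Lgals3 rose, and Itgax and Spp1 did not pass the test. Itgax (ENSMUSG00000030789, chr7:128129547-128150656) encodes CD11c, the alpha chain of an integrin that pairs with the beta chain Itgb2. It was at 3.70, 3.09 and 4.49 CPM in KO and at 1.90, 0.395 and 0.404 CPM in WT libraries. As for Cst7, WT replicate 1 was the high WT library, at 4.74 times the mean of the other WT libraries, and the lowest KO library stood at 1.63 times WT replicate 1. The log2 fold change of Itgax was 2.26 (95% interval 1.22 to 3.30), with an edgeR adjusted p of 0.124, and without WT replicate 1 it was 3.23, with an edgeR adjusted p of 0.00681. Itgb2 itself averaged 7.41 ± 1.13 CPM in KO and 3.94 ± 1.17 CPM in WT (SD, n = 3 each), with an edgeR adjusted p of 0.184. The libraries held 0.452 to 0.553 CPM of Itgax per CPM of Itgb2 in KO, against 0.110 to 0.363 in WT.

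Spp1 (ENSMUSG00000029304, chr5:104435118-104441050) encodes osteopontin, a secreted ligand of integrins and CD44 that neurons and other cells also make. It was at 69.7, 60.2 and 53.9 CPM in KO and at 32.8, 32.5 and 42.3 CPM in WT libraries. The groups did not overlap, and the highest WT library was here replicate 3. Spp1 had a log2 fold change of 0.77 (95% interval 0.45 to 1.08), with an edgeR adjusted p of 0.0853. Lgals3 (ENSMUSG00000050335, chr14:47367751-47386160) encodes galectin-3, a lectin that binds damaged lysosomes and glycoproteins of the cell surface. It was at 8.89, 6.76 and 8.40 CPM in KO and at 3.06, 3.29 and 3.44 CPM in WT libraries. The WT libraries lay within a narrow range, well below the lowest KO library. Lgals3 averaged 8.02 ± 1.11 CPM in KO and 3.26 ± 0.191 CPM in WT (SD, n = 3 each), a log2 fold change of 1.29 ± 0.16 (SE), with an edgeR adjusted p of 0.0253. Lgals3 lost its call without WT replicate 2 (edgeR adjusted p 0.154) and without WT replicate 3 (0.221).

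**Figure D2:**
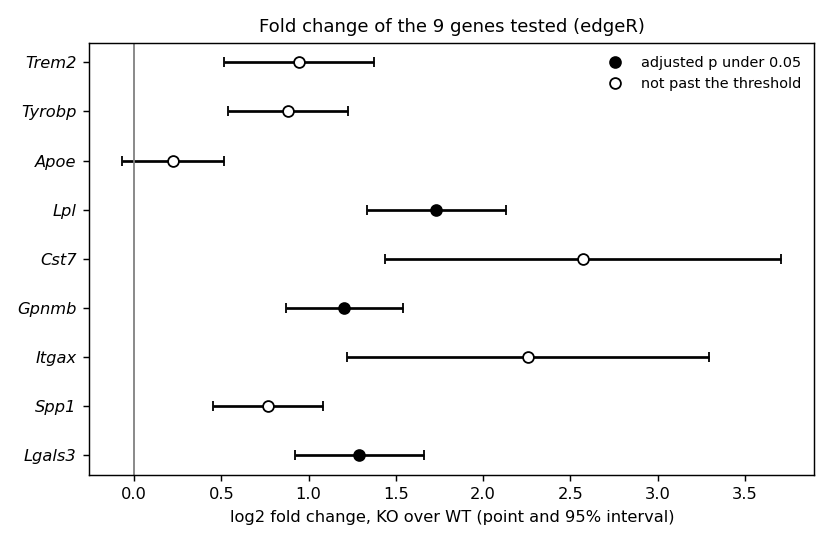
Log2 fold change, KO over WT, of the 9 tested genes from the edgeR fit with sex and genotype, with 95% intervals. Filled points passed the Benjamini-Hochberg threshold over all genes tested. The points run from 0.22 for Apoe to 2.57 for Cst7, and the intervals of Cst7 and Itgax are the widest of the 9.

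Ordered by level per kilobase of gene model, the 10 genes stood in the same order in KO as in WT cerebella, from Apoe (407 CPM per kilobase in KO and 344 in WT) to Ch25h (0.404 in KO and 0.0736 in WT). Spp1 (37.2 in KO and 21.8 in WT) and Tyrobp (31.1 in KO and 17.0 in WT) came next to Apoe and overlapped each other across libraries in both genotypes. Lgals3 was at 4.31 CPM per kilobase in KO and 1.76 in WT, Gpnmb at 3.23 in KO and 1.39 in WT, and Trem2 at 2.53 in KO and 1.32 in WT. Cst7 followed at 2.27 in KO and 0.416 in WT, Lpl at 1.21 in KO and 0.363 in WT, and Itgax at 0.929 in KO and 0.222 in WT. In KO libraries neighbours in this order also overlapped for Lgals3 and Gpnmb, Gpnmb and Trem2, Trem2 and Cst7, and Lpl and Itgax. In WT libraries they overlapped for Gpnmb and Trem2, Cst7 and Lpl, Lpl and Itgax, and Itgax and Ch25h. Per kilobase, Cst7 and Trem2 thus overlapped in KO libraries, while their WT ranges lay apart. The order between genes rests on the gene model lengths, such as 986 bases for Cst7 and 4946 bases for Trem2. These can differ from transcript lengths. Before division by length, Trem2 was at 11.1 to 14.7 CPM and Cst7 at 2.03 to 2.61 CPM in KO libraries.

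**Figure D3:**
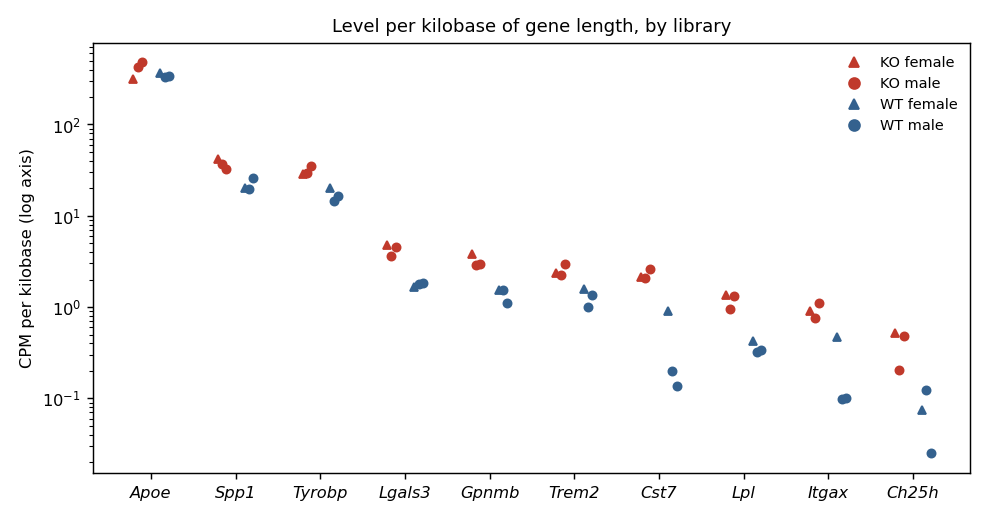
CPM per kilobase of gene model of the 10 genes in each library on a log axis, with KO libraries left of WT libraries for each gene. The order by mean is the same in both genotypes, from Apoe at 407 in KO and 344 in WT to Ch25h at 0.404 in KO and 0.0736 in WT.

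Within each sex the order of the genotypes was the same as in the pooled values for every tested gene other than Apoe, which was lower in the KO female. The KO over WT ratio of CPM was 2.32 in the females and 13.9 in the males for Cst7, and 1.95 in the females and 9.48 in the males for Itgax, where the female WT library is the high WT replicate 1. It was 2.12 in the females and 1.52 in the males for Spp1, and 2.91 in the females and 2.25 in the males for Lgals3. Lpl gave 3.17 in the females and 3.41 in the males, and Gpnmb 2.47 in the females and 2.23 in the males. Trem2 gave 1.50 in the females and 2.19 in the males, and Tyrobp 1.42 in the females and 2.10 in the males. The edgeR term for a difference between the sexes had adjusted p values of 0.0844 for Apoe, 0.0876 for Itgax and 0.0933 for Cst7 and 0.244 to 0.905 for the other tested genes, and it called 0 genes in the whole table, with 1 female a genotype. WT replicate 1 was the highest WT library in 7 of the 10 genes.

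Homeostatic genes, which mark microglia at rest, were read beside the 10 genes of the report, and 10 homeostatic genes were tested. The median log2 fold change of the homeostatic genes was 0.19, beside 1.20 for the 9 tested genes of the report. A difference between the lists was not tested. P2ry12, the purinergic receptor of process movement, had a log2 fold change of 0.08, Tmem119 -0.01, Csf1r 0.22 and Cx3cr1 0.42, all short of the threshold in edgeR. The summed level of the 10 markers was 241 to 256 CPM in KO and 181 to 208 CPM in WT libraries. When each gene of the report was expressed relative to the mean log2 CPM of these markers in the same library, KO libraries still lay above WT libraries in 9 of the 10 genes. On plain CPM this was the case for 7.77% of all genes tested, and the share of all genes on the relative scale is not given here. The KO minus WT differences on this relative log2 scale were 2.44 for Cst7, 2.15 for Itgax, 1.68 for Ch25h, 1.52 for Lpl, 1.10 for Lgals3 and 1.03 for Gpnmb. They were 0.77 for Trem2, 0.70 for Tyrobp and 0.60 for Spp1, and 0.05 for Apoe, whose libraries overlapped. These differences are a description, since 3 libraries against 3 cannot fall below an exact two-sided permutation p of 0.10.

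**Figure D4:**
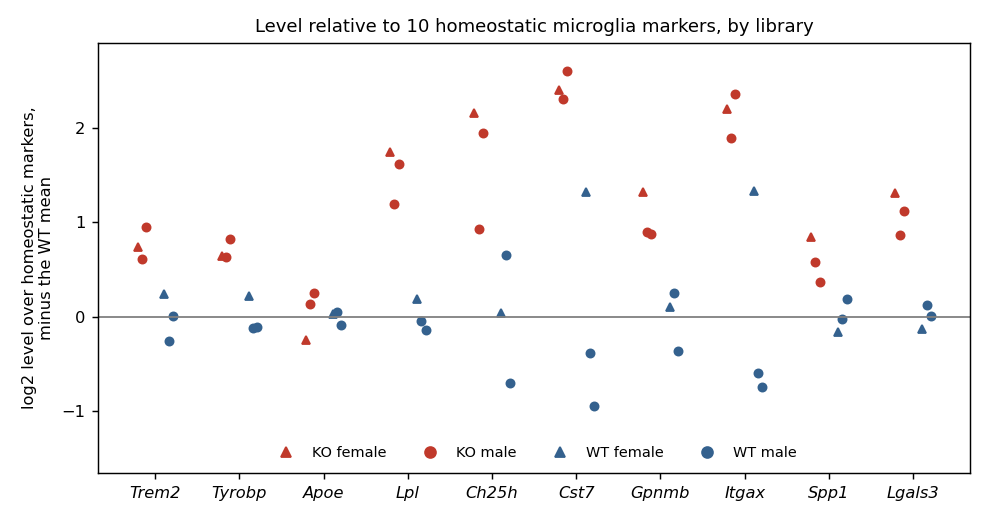
Log2 level of each of the 10 genes minus the mean log2 CPM of 10 homeostatic microglia markers in the same library, set to a WT mean of 0. KO points stand left of WT points, with triangles for females and circles for males. KO points lie above all WT points for every gene other than Apoe, and the female WT library is the high WT point of Cst7 and Itgax.

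The other receptors of the TREM family were at low counts. Of Trem1, Trem3, Treml1, Treml2 and Treml4, only Treml2 passed the filter, at a log2 fold change of 0.75 and an edgeR adjusted p of 0.712, and Trem3 had 0 counts in every library. Of 20 genes of TREM2 signalling tested, the cascade downstream of DAP12 and its regulators, 0 were called by edgeR, DESeq2 or limma-voom. At an unadjusted edgeR p under 0.05, 1 of the 20 was higher in KO, a share close to the 4.71% of all genes tested. That gene was Ptpn6, the phosphatase SHP-1 that dampens such signals, at 4.22 ± 0.284 CPM in KO and 2.74 ± 0.160 CPM in WT (SD, n = 3 each). The log2 fold change was 0.03 for Syk, the kinase recruited by DAP12, 0.10 for the phospholipase Plcg2, 0.28 for the phosphatase Inpp5d (SHIP1), -0.13 for the adaptor Grb2 and 0.04 for Adam10, a protease that sheds TREM2. The median over the 20 was 0.14.

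Outside the 10 genes, the late state was represented by 19 further gene models tested, of which 2 rose and 0 fell, with a median log2 fold change of 0.20. At an unadjusted edgeR p under 0.05, 10 of the 19 were higher in KO, against 4.71% of all genes tested, and 0 were lower. Both models of Clec7a are among the 10. Lilrb4, Ccl3 and Ccl4 are too, and they passed the filter only through the KO libraries, so counts over these models are descriptions. Ccl3 had 41, 36 and 26 counts in KO and 15, 9 and 8 in WT libraries, and Ccl4 10, 15 and 15 in KO and 3, 3 and 12 in WT. Every KO library lay above every WT library in 8 of the 19, against 7.77% of all genes tested. Log2 fold changes were above 0 in 16 and below 0 in 3. Clec7a, the beta-glucan receptor dectin-1, averaged 7.12 ± 0.664 CPM in KO and 2.00 ± 0.555 CPM in WT (SD, n = 3 each) in the model ENSMUSG00000079293, with a log2 fold change of 1.85 and an edgeR adjusted p of 0.0106, which was 0.117 without WT replicate 2 and 0.148 without WT replicate 3. The file holds a second Clec7a model, so its reads could be split between them. Lilrb4, an inhibitory receptor, averaged 1.38 ± 0.298 CPM in KO and 0.266 ± 0.0303 CPM in WT (SD, n = 3 each), with a log2 fold change of 2.34 and an edgeR adjusted p of 0.0285. Its counts were 43, 32 and 37 in KO and 8, 9 and 7 in WT libraries, so it passed the filter through the KO libraries only. Lilrb4 was called in 8 of 13 alternative fits, and leaving out any library but KO replicate 3 ended the call, with edgeR adjusted p values of 0.0508 without KO replicate 1, 0.0765 without KO replicate 2, 0.0527 without WT replicate 1, 0.154 without WT replicate 2 and 0.227 without WT replicate 3. The chemokine Ccl3 had a log2 fold change of 1.83 and an edgeR adjusted p of 0.0504, and Axl, a receptor for dying cells that astrocytes also make, had a log2 fold change of -0.06. Igf1 was at -0.19, Csf1 at 0.20, Cd9 at 0.16, Cd63 at 0.25 and the protease Ctsl at 0.15 on the same scale, without passing the threshold. Cd52 was at 1.02, Ccl6 at 0.66 and Capg at 0.47 on that scale, also short of the threshold. DESeq2 called 4 of these models and limma-voom 2.

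Of 8 early genes outside the 10, which microglia raise without TREM2, 1 rose and 0 fell, with a median log2 fold change of 0.19. Higher in KO at an unadjusted edgeR p under 0.05 were 5 of the 8, against 4.71% of all genes tested, and 0 were lower. In 4 of the 8 every KO library lay above every WT library, against 7.77% of all genes tested. Lyz2, lysozyme of macrophages, averaged 50.8 ± 8.31 CPM in KO and 17.6 ± 1.53 CPM in WT (SD, n = 3 each), with a log2 fold change of 1.53 and an edgeR adjusted p of 0.0106, which was 0.117 without WT replicate 2 and 0.148 without WT replicate 3. The protease Ctsd had a log2 fold change of 0.34 with an edgeR adjusted p of 0.118, B2m of class I antigen presentation 0.18, Ctsb 0.05 and H2-D1 -0.19. DESeq2 called 2 of the 8 and limma-voom 1. The early and the late state thus each held genes that rose and genes that missed the threshold in these libraries, and a difference between the lists was not tested.

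Partners of the proteins of the 10 genes followed, such as receptors, ligands and target enzymes. Of 15 tested, 0 were called by edgeR, with a median log2 fold change of 0.22, and DESeq2 called 1, Itgb2. At an unadjusted edgeR p under 0.05, 5 of the 15 were higher in KO, against 4.71% of all genes tested, and 0 were lower. Every KO library lay above every WT library in 4 of the 15, against 7.77% of all genes tested. The APOE receptors Lrp1 and Vldlr had log2 fold changes of -0.14 and 0.09. The osteopontin receptor Cd44 was at 0.40, the cathepsins Ctsc and Ctsh, which cystatin F inhibits, at 0.22 and 0.28, and the galectin-3 ligand Lgals3bp at -0.17. Cyp7b1, the enzyme that turns 25-hydroxycholesterol into the ligand of Gpr183, was at 0.36 and Gpr183 at 0.71, neither past the threshold. Genes of lipid load and of its MiT/TFE and LXR control, 16 tested, held 0 called by edgeR, DESeq2 or limma-voom, and 0 with an unadjusted edgeR p under 0.05. Their median log2 fold change was 0.07, with 0.16 for the lipid droplet coat Plin2, 0.12 for the cholesterol exporter Abca1, -0.04 for Npc1, 0.08 for Mitf and -0.08 for Tfeb.

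The genes whose values across the 6 libraries lay closest to the median profile of the 9 tested genes were Cd84 (a receptor of immune cells), Serpina3n (a secreted protease inhibitor), Mpeg1 (perforin-2 of macrophages), Emr1 and C3 (the central complement component). Likeness was the root mean square distance of log2 CPM after subtraction of the WT mean, over 14774 candidate genes that averaged 1 CPM or more, and these 5 stood at 0.0920 to 0.165. The profile they were chosen by is high in KO libraries, so their difference between the genotypes was built into the choice and is given as a description. Cd84 averaged 5.19 ± 0.933 CPM in KO and 2.29 ± 0.567 CPM in WT (SD, n = 3 each), with a log2 fold change of 1.19. Serpina3n averaged 12.6 ± 1.80 CPM in KO and 5.26 ± 1.49 CPM in WT (SD, n = 3 each), and Mpeg1 50.3 ± 8.66 CPM in KO and 24.4 ± 1.83 CPM in WT. Emr1, the symbol in the file for the macrophage marker F4/80, averaged 7.84 ± 0.709 CPM in KO and 3.62 ± 0.136 CPM in WT. C3 was at 10.1 ± 2.11 CPM in KO and 4.49 ± 0.501 CPM in WT. The log2 fold change was 1.28 for Serpina3n, 1.04 for Mpeg1, 1.11 for Emr1 and 1.16 for C3.

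Several of the 10 genes are also made by other macrophages, dendritic cells or infiltrating leukocytes, and markers of those cells were read beside them. Markers of border macrophages summed to 7.53 to 9.25 CPM in KO and 5.42 to 7.41 CPM in WT libraries, with Mrc1 at a log2 fold change of 0.53 and Cd163 at 0.52, 0 of 7 called and 0 with an unadjusted edgeR p under 0.05. Their KO sums lay above their WT sums, and their part in the results was not tested. Dendritic cell markers summed to 105 to 111 CPM in KO and 113 to 119 CPM in WT. Most of this came from Zbtb46 (mean 75.0 CPM in KO and 76.7 in WT) and Flt3 (31.8 in KO and 38.1 in WT). Which cells held these transcripts was not tested. Clec9a and Xcr1, which mark only a subset of conventional dendritic cells, had 0 to 2 counts per library. Markers of monocytes and neutrophils summed to 5.08 to 9.76 CPM in KO and 4.75 to 7.38 CPM in WT, with a median log2 fold change of 0.74 and 0 of 6 called by edgeR. At an unadjusted p under 0.05, 2 of the 6 were higher in KO, against 4.71% of all genes tested. S100a8 had a log2 fold change of 1.14 and S100a9 of 1.00, and both overlapped between the genotypes. S100a8 was highest in KO replicate 1, with 37 counts against 6 in KO replicate 3 and 18 in WT replicate 1. S100a9 was too, with 51 counts against 13 and 24 in the same libraries. The part of S100a8 and S100a9 in the results was not tested. Lymphocyte markers summed to 1.02 to 1.88 CPM in KO and 1.11 to 1.52 CPM in WT. Red blood cell genes summed to 77.2 to 157 CPM in KO and 71.8 to 88.5 CPM in WT, with 0 of 5 called by edgeR and 1 by DESeq2. At an unadjusted edgeR p under 0.05, 3 of the 5 were higher in KO, against 4.71% of all genes tested. Over the 10 marker lists other than the homeostatic microglia, edgeR called 0 of 58 tested genes, DESeq2 called 1 and limma-voom 0. At an unadjusted edgeR p under 0.05, 6 of the 58 were higher and 3 lower, against 798 higher and 720 lower of all 16934 genes tested.

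The calls, though not the direction of the fold changes, depended on single libraries. Without WT replicate 2, and likewise without WT replicate 3, 0 of the 10 genes were called by edgeR and 0 genes of the whole table were called higher, while 9 of the 10 genes had an unadjusted p under 0.05. Without KO replicate 2, Lpl and Lgals3 were called, where 0.0639% of all genes were called higher. Without KO replicate 1, KO replicate 3 or WT replicate 1, 8 of the 10 genes were called, where 0.238%, 0.389% and 0.232% of all genes were called higher. DESeq2 called 8 of the 9 tested genes, all but Apoe, where it called 0.537% of all genes higher, with adjusted p values of 7.06e-04 for Trem2, 4.77e-05 for Tyrobp, 1.53e-04 for Cst7, 4.05e-05 for Itgax and 3.96e-05 for Spp1. limma-voom called Lpl, Gpnmb and Lgals3, where it called 0.124% of all genes higher. In edgeR, 7 of the 10 genes were called with no filter (0.294% of all genes), 4 with RLE size factors (0.183%), 4 at a mean of 1 CPM or more (0.21%) and 5 with no sex term (0.165%). The males alone gave 8 (0.235%), a threshold of 0.10 gave 5 (0.242%), and offsets for GC content and length, added after seeing the data, gave 8 (0.614%). Over 14 alternative fits each, the log2 fold change ran from 1.60 to 1.86 for Lpl, 1.16 to 1.42 for Lgals3, 1.10 to 1.35 for Gpnmb, 0.77 to 1.07 for Tyrobp and 0.78 to 1.13 for Trem2. It ran from 2.19 to 3.76 for Cst7, 1.96 to 3.23 for Itgax, 0.60 to 0.93 for Spp1 and 0.13 to 0.43 for Apoe, and it was above 0 in all of these fits. Apoe passed the threshold in 4 of the 14, among them the fit without WT replicate 1 (0.43, edgeR adjusted p 0.0440) and the males alone (0.43, edgeR adjusted p 0.0325).

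**Figure D5:**
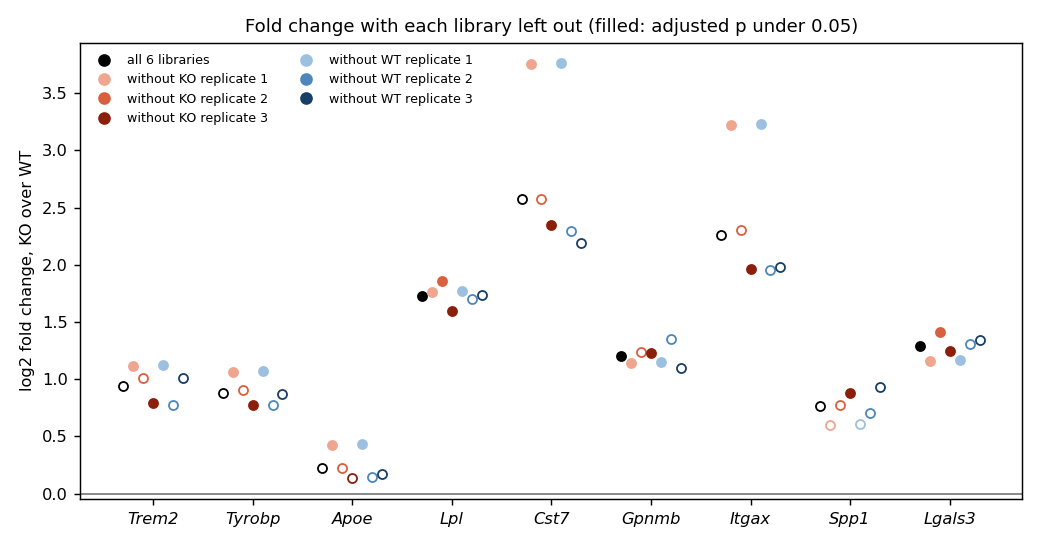
Log2 fold change, KO over WT, of the tested genes in edgeR with all 6 libraries and with each library left out in turn. Filled points passed the threshold in that fit. All points lie above 0, Cst7 and Itgax move most and lie highest without KO replicate 1 or WT replicate 1, the females (3.76 and 3.23 without WT replicate 1), and no point is filled without WT replicate 2 or WT replicate 3.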

How the data were processed

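Raw counts of reads per gene, in 1 table deposited by the authors, were used for cerebellar RNA of 6 mice, with coordinates, gene lengths and symbols per the file headers. The submitters' processing notes name STAR and mm10. For the counting tool, strand setting and annotation release nothing is given in the sources used here, so overlapping genes may share reads. No columns other than those of the 6 libraries held counts (0 others). All 37 mitochondrial genes were at 0.

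The test used edgeR 4.0.16 in R 4.3.3, with filterByExpr on genotype (minimum count 10, total 15; 16934 of 43346 genes kept), TMM scaling, and a two-sided quasi-likelihood F test of genotype with sex as a covariate (residual df 3, prior df 5.41, robust). P-values were Benjamini-Hochberg adjusted over all genes tested (threshold 0.05) and measure the spread between 3 mice per genotype. Log2 CPM used a prior count of 2. Gene models' lengths are those of the file. The steps were tested on simulated data with known changes. Pairs of replicates had a chi-square of 6.96 to 28.8 per degree of freedom, so none was a copy of another, and the biological coefficient of variation was 11.2%.

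The members and the lists (18 with the members, 183 of 185 entries found) were chosen with earlier results of these data known. Named genes were all members, called list genes, otherwise up to 4 of a list's most abundant, and the 5 nearest profiles. Ptpn6, Syk, Plcg2, Inpp5d, Itgb2, Ccl3, Axl and other uncalled genes of known role were named after their values were seen. Some list genes are not reported here. Alternatives were RLE size factors, other filters, DESeq2 1.42.0, limma-voom (limma 3.58.1), a threshold of 0.10, no sex term, only the males, and each library in turn left out. A fit with GC content and length trends as offsets (loess, span 0.5; GENCODE gave GC content for 99.0% of the genes tested) was added after seeing the data.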

Additional observations from a re-analysis of the deposited data

Results flagged for a closer look

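Apoe was singled out because its difference between the genotypes ran in opposite directions in the sexes. The KO over WT ratio of CPM was 0.871 in the females, from 626 CPM in the KO and 719 CPM in the WT female, and 1.35 in the males, from 843 and 951 CPM in KO and 654 and 673 CPM in WT. The difference between the log2 ratios, females minus males, was -0.63, and its interaction term in edgeR had a Benjamini-Hochberg adjusted p of 0.0844. That fit had 2 residual degrees of freedom and called 0 genes of the whole table. Each genotype held 1 female, so a difference between the sexes cannot be told apart from one between single mice.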

How the results depend on the processing

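The log2 fold changes of the 9 tested members kept their direction under all 14 alternatives, while the number past the threshold did not stay at 3. It was 7 with no filter on low counts, 8 with DESeq2, 5 with no sex term, 8 with males only, 5 at a threshold of 0.10, 8 with GC content and length offsets, and 0 to 8 with a library left out. Over all genes, the 23 called higher in KO were 78 with no filter, 91 with DESeq2, 40 with males only, 41 at a threshold of 0.10, 104 with GC content and length offsets, and 0 to 67 with a library left out. The 25 called lower were 44 with RLE size factors, 121 with no filter, 45 at a mean of at least 1 CPM, 141 with DESeq2, 71 with males only, 68 at 0.10, 167 with the offsets and 1 to 89 with a library left out. The cause was not tested. The fits without WT replicate 2 or WT replicate 3 called 0 genes higher in edgeR, with 627 and 618 higher at an unadjusted p under 0.05. RLE size factors shifted the median log2 fold change by 0.0013 against TMM. The median difference relative to homeostatic markers was 1.03, against 0.924 in males and 0.850 to 1.16 with a library left out. Leaving out a female leaves 1 female library in all, so that those fits compare the males. At this depth Ch25h, with 1 to 18 counts per library, was not tested in the main fit. No paired analysis was possible because the labels carry no replicate numbers. The titles of WT replicate 1, KO replicate 1 and KO replicate 2 share a code that the labels do not explain, so a shared origin was not tested.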
